A study of Mus musculus with 10 samples.

Results

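The genes of gluconeogenesis, the making of new glucose from lactate, amino acids and glycerol, were followed in the kidneys of old mice on a control or a calorie-restricted diet. The set held 7 genes, Pck1, Pck2, Pcx, Fbp1, G6pc, G6pc3 and Slc37a4, and took every probe set whose platform annotation gave exactly that 1 gene symbol. This found 14 of 45101 probe sets, for 7 of 18194 named genes. Kidneys came from male C57BL/6 mice aged 30 months, 5 on a control diet and 5 on a calorie-restricted diet, with 1 mouse on each of 10 Affymetrix mouse arrays hybridised with biotin-labelled cRNA. How strong and how long the restriction was, and whether the mice were fed or fasted when the kidneys were taken, the sources used here do not give. The labels name neither pooled animals nor any genetic change, and the whole kidney holds many cell types, so that fewer cells of a type and less RNA per cell cannot be told apart. Replicates are different mice, and the number of arrays limits the precision.

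The kidney is, beside the liver, the organ that releases newly made glucose into the blood, and within it the proximal tubule holds the pathway. Pyruvate carboxylase (Pcx) turns pyruvate into oxaloacetate in the mitochondrion, and phosphoenolpyruvate carboxykinase, cytosolic (Pck1) or mitochondrial (Pck2), turns oxaloacetate into phosphoenolpyruvate. Fructose bisphosphatase (Fbp1) bypasses the phosphofructokinase step of glycolysis. Glucose 6-phosphate is carried into the endoplasmic reticulum by Slc37a4 and split there to free glucose by the glucose 6-phosphatases, G6pc of liver and kidney and the widely expressed G6pc3.

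In calorie-restricted kidney Fbp1, G6pc3 and Pcx were higher and no gene of the set was lower when each gene was taken by its brightest probe set. The rises were 1.29-fold for Fbp1, 1.39-fold for G6pc3 and 1.32-fold for Pcx, log2 differences of 0.37, 0.48 and 0.40 beside a median of 0.40 over markers of the proximal tubule. Pck1, the enzyme usually named as the control point, had a mean log2 signal of 13.94 in either diet by its brightest probe set. Another Pck1 probe set fell to 0.499 of its control level, and it was lowest on the arrays whose control transcripts were read most unequally from end to end. The calls of Fbp1, G6pc3 and Pcx were each lost under some treatments of the data, given beside them.

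On build GRCm38.p6 the genes span chr19:4510472-4621752 (Pcx), chr2:173153073-173159274 (Pck1), chr14:55540263-55550020 (Pck2), chr13:62864753-62888298 (Fbp1), chr11:101367716-101377903 (G6pc), chr11:102189699-102194081 (G6pc3) and chr9:44396946-44402966 (Slc37a4), per RefSeq.

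Start regions are shown so that the members that rose (Fbp1, G6pc3, Pcx) can be read beside Pck1 and G6pc, which were not called by their brightest probe sets. Each is the 250 bases before a transcript start in RefSeq on build GRCm38.p6, written 5′ to 3′ on the gene's strand. The start of Fbp1 lies slightly inside the gene span given above. Capitals mark each match to the letters CGTCA or its complement TGACG, found in many but not all cAMP response elements. They also mark CACGTG, the E box, which reads the same on both strands. Promoter sequences were found for 7 of 7 genes, with several starts for Slc37a4 (3) and Pcx (2), of which the more upstream Pcx start is shown.
Pck1: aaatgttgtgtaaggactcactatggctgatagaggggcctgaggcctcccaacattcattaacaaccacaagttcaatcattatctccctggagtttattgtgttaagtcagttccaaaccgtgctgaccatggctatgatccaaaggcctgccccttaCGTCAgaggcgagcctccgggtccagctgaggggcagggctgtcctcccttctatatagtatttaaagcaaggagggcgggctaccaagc
G6pc: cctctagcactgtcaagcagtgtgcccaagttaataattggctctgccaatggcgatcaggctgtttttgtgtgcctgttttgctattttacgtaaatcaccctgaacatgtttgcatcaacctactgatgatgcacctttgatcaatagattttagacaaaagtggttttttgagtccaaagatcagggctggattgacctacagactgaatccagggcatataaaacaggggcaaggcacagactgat
Fbp1: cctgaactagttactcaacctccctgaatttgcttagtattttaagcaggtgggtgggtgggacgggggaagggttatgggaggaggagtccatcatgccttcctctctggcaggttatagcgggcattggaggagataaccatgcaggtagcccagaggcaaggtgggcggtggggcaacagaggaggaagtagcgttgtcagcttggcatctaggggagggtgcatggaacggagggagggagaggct
G6pc3: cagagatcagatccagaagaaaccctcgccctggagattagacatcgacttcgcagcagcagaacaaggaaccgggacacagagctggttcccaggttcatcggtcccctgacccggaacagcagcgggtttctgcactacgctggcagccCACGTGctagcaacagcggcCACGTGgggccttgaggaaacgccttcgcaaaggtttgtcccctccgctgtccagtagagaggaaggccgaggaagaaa
Pcx: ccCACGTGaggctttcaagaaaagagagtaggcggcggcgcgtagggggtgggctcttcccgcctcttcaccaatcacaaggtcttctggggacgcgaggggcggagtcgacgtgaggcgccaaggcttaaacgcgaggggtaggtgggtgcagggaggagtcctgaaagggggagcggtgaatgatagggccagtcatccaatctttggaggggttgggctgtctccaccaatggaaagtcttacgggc
They lie at chr2:173152823-173153072 (plus strand), chr11:101367466-101367715 (plus), chr13:62888283-62888532 (minus), chr11:102189449-102189698 (plus) and chr19:4510222-4510471 (plus). The Pck1 window held 1 CGTCA core, which begins 90 bases before the start, in the stretch taCGTCA known as part of the cAMP response element of this gene. Neither the G6pc nor the Fbp1 window held either motif, which does not show that they lack a cAMP response element with other letters. The G6pc3 window held 2 E boxes, beginning 99 and 79 bases before the start, and the upstream Pcx window 1, at 248 bases. Of 32851 windows of the same length, 17.8% held the CGTCA core on either strand and 6.02% the E box. Of the windows not shown, 2 of the 3 of Slc37a4 held the CGTCA core, and those of Pck2 and of the other Pcx start held neither motif. The letters TGTTTAC (forkhead core, or its complement GTAAACA) were in no window of the 7 genes and in 3.17% of all, and TATAAA (or its complement TTTATA) was in that of G6pc, 29 bases before the start, in 1 of Slc37a4, at 32 bases, and in 12.4% of all. The motifs were chosen after the sequences had been seen, and a match describes the letters only.

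Values below are log2 of the deposited MAS5 signal unless called signal, and differences are restricted minus control, each with limma's standard error. Adjusted p-values are from limma with Benjamini-Hochberg adjustment over 22519 tested probe sets, and a probe set was called when its adjusted p was below 0.05. Of the 14 probe sets 9 were tested, 1 of Pck2 was below the filter on dim probe sets, and 4 of Pcx are Affymetrix control probe sets, which were kept out of the fit. Over all tested probe sets 6.09% were called, 2.93% higher and 3.16% lower, and the diets did not overlap in 7.12% (3.67% with restriction higher, 3.45% with restriction lower). By brightest probe set 6.1% of 12196 genes were called, 3.08% higher and 3.02% lower, against 3 higher and 0 lower of the 7 genes. At an unadjusted p below 0.05 the numbers were 4 higher and 0 lower of the 7 genes, against 1542 higher and 1682 lower of all 12196. The median difference of the 7 genes was 0.22, and that of all genes tested -0.0052.

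Affymetrix arrays read Gapdh and Actb near either end of the transcript, and the signal at the 3′ end over that at the 5′ end, here called the end ratio, rises as RNA or its copies get shorter. The end ratio was 0.76 to 1.39 on control arrays and stood at 2.21, 2.01 and 1.75 on calorie-restricted arrays 1, 2 and 3, and at 1.24 and 1.16 on arrays 4 and 5 (log2, mean of both genes, exact permutation p = 0.0476, 2-sided). Calorie-restricted replicates 1 to 3 thus stood above all controls and replicates 4 and 5 within them. The 7 genes are therefore also given with the end ratio as a covariate, where 0.04% of all probe sets were called, and in replicates 4 and 5 of each diet alone, where 0.879% were. Genes outside the set that are called are given so where the value moved by over 1.5 times.

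**Figure D1:**
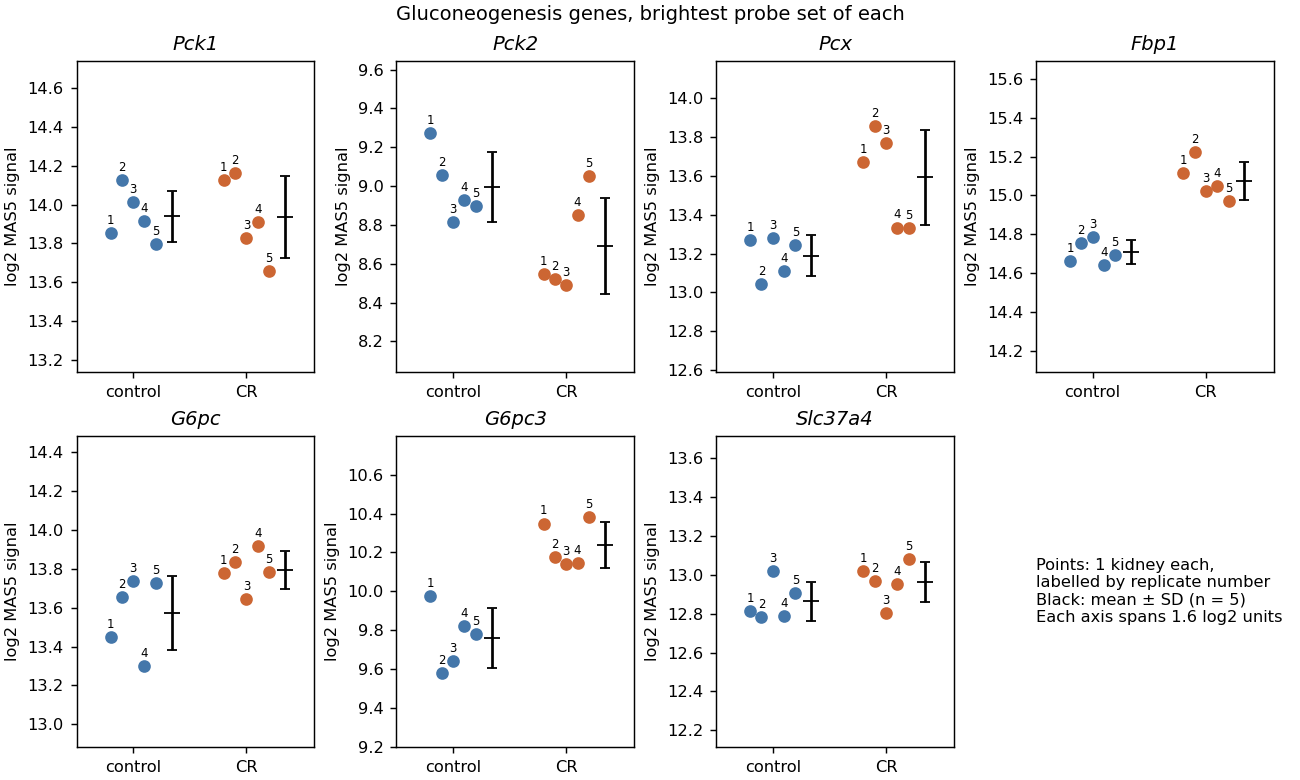
Log2 MAS5 signal of the brightest probe set of each gluconeogenesis gene on each array, control (blue) against calorie restriction (orange, CR), with points numbered by replicate and the black bar giving the mean ± SD of 5 mice. The 5 restricted kidneys lie above all 5 controls for Pcx, Fbp1 and G6pc3, and the diets overlap for Pck1, Pck2, G6pc and Slc37a4.

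Pcx makes the oxaloacetate from which the pathway starts, and its brightest probe set was higher under restriction. The log2 values were 13.27, 13.04, 13.28, 13.11 and 13.25 in control kidneys 1 to 5 and 13.67, 13.85, 13.77, 13.33 and 13.33 in restricted kidneys 1 to 5. All 5 restricted kidneys lay above all controls, replicates 1 to 3 by far more than replicates 4 and 5. Mean signal went from 9360 ± 673 to 12502 ± 2079 (SD, n = 5), a log2 difference of 0.40 ± 0.11 (limma adjusted p = 0.0450). The difference was 0.19 with the end ratio as covariate (adjusted p = 0.527) and 0.16 in replicates 4 and 5 alone (0.503). The call was also lost after quantile normalization (0.26, adjusted p = 0.121) and on leaving out any 1 array other than calorie-restricted replicate 4 or 5 (0.34 to 0.43, adjusted p = 0.0516 to 0.110).

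Because Pcx is also a control transcript on Affymetrix arrays, 4 further probe sets read it from its 5′ end through the middle (named MA and MB) to its 3′ end. The 3′ control stood at 12.38, 12.19, 12.39, 12.34 and 12.43 in control kidneys and at 12.93, 12.96, 12.86, 12.54 and 12.56 in restricted kidneys. The groups did not overlap, and the pattern over replicates was that of the brightest probe set. The difference was 0.43 (exact permutation p = 0.00794, the smallest that 5 against 5 can give, 0.0397 after Benjamini-Hochberg adjustment over the 5 probe sets outside the fit). The MB control of the middle stood at 9.36, 9.14, 9.83, 8.78 and 9.10 in control kidneys and at 7.85, 8.84, 8.38, 8.99 and 9.16 in restricted kidneys. Here restricted replicates 1 and 3 were below all controls and the others within them. Its difference was -0.60 (exact permutation p = 0.0873, adjusted 0.218). The MA control differed by -0.089 (exact permutation p = 0.706) and the 5′ control by 0.25 (exact permutation p = 0.246). The probe sets of Pcx thus did not share a direction: those of the 3′ control and the brightest probe set were higher in every restricted kidney, and those of the middle were not.

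The difference between 2 probe sets on the same array is the same under any scaling by 1 factor per array. For Pcx, the 3′ control minus the MB control was 3.02, 3.04, 2.55, 3.56 and 3.33 in control kidneys and 5.09, 4.12, 4.49, 3.54 and 3.40 in restricted kidneys. It was widest in restricted replicates 1 to 3, the arrays with the highest end ratios, and like the controls in replicates 4 and 5. Between the diets it differed by 1.03 (exact permutation p = 0.0238, 0.111 after adjustment over 7 such differences, which were chosen after the values had been seen), and by 0.026 in replicates 4 and 5 alone. The 3′ control minus the MA control followed the end ratio less closely. It was 5.54, 4.69 and 5.51 in restricted replicates 1 to 3, 4.44 and 4.18 in replicates 4 and 5, and 4.08 to 4.67 in control kidneys. Between the diets it differed by 0.51 (exact permutation p = 0.159, adjusted 0.222), and by -0.34 in replicates 4 and 5 alone. Taken over the whole of Pcx, the 3′ control minus the 5′ control was 4.72 ± 0.37 in control and 4.90 ± 0.26 in restricted kidney (SD, n = 5, exact permutation p = 0.389).

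**Figure D2:**
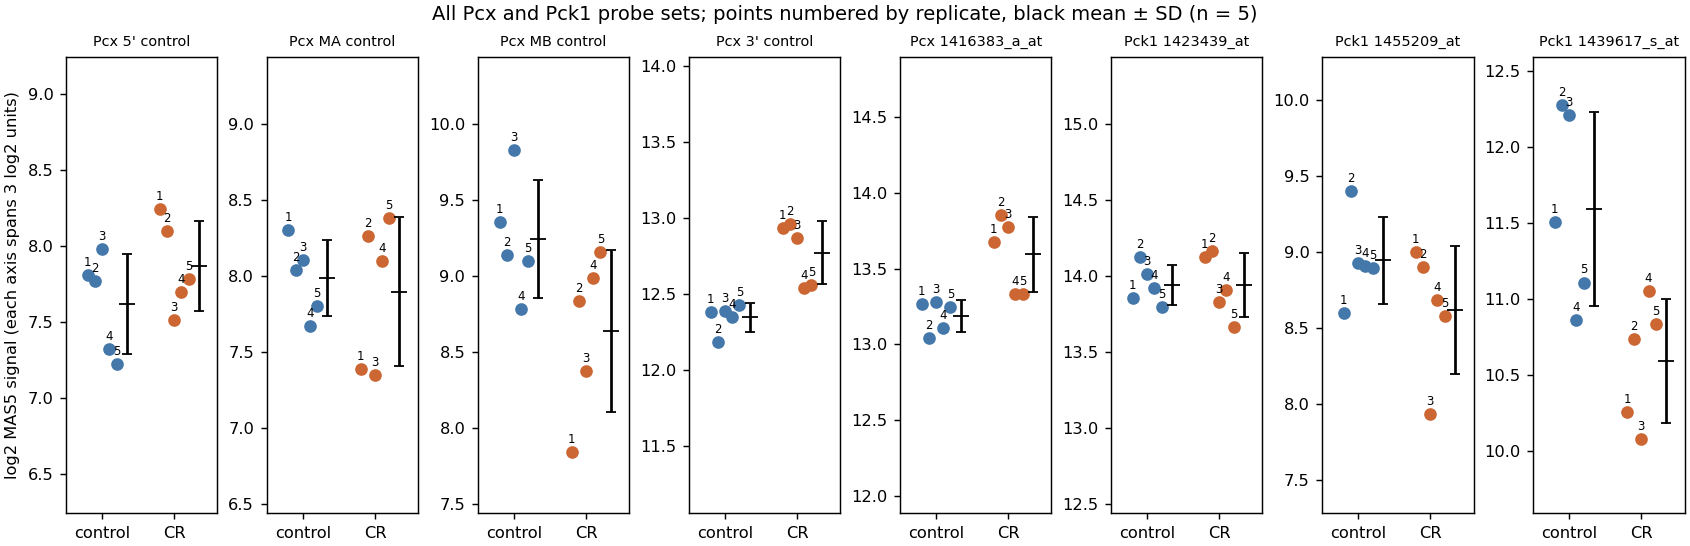
Log2 MAS5 signal on each array for all 5 Pcx probe sets, the 4 Affymetrix controls first, and all 3 Pck1 probe sets, control (blue) against calorie restriction (orange, CR), points numbered by replicate, black bars mean ± SD of 5 mice. The Pcx 3′ control and 1416383_a_at were higher in all restricted kidneys while the MB control was lowest in restricted replicates 1 and 3, and Pck1 1439617_s_at was lowest there too while Pck1 1423439_at overlapped between the diets.

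Pck1 draws off oxaloacetate to phosphoenolpyruvate in the cytosol and is the gluconeogenic enzyme whose transcript responds fastest to hormones, fasting and acidosis. Its brightest probe set, 1423439_at, stood at 13.85, 14.12, 14.01, 13.92 and 13.79 in control kidneys and at 14.13, 14.16, 13.83, 13.91 and 13.66 in restricted kidneys. The diets overlapped throughout. The difference was -0.0039 ± 0.10 with a 95% interval of -0.22 to 0.21 (limma adjusted p = 0.985), so a change of over 0.22 in either direction lies outside the interval at this scaling. After quantile normalization it was -0.21 (adjusted p = 0.126), with the end ratio as covariate -0.13 and in replicates 4 and 5 alone -0.072.

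The probe set 1439617_s_at of Pck1, whose suffix marks probes that can bind related transcripts, was lower under restriction. It stood at 11.51, 12.28, 12.21, 10.86 and 11.11 in control kidneys and at 10.25, 10.74, 10.08, 11.05 and 10.83 in restricted kidneys. Controls 1 to 3 were above all other arrays, control 4 lay among the restricted kidneys, control 5 just above them, and restricted replicates 1 and 3 were lowest. Signal went from 3339 ± 1437 to 1592 ± 432 (SD, n = 5), a difference of -1.002 ± 0.27 (limma adjusted p = 0.0429). The difference was -0.39 with the end ratio as covariate (adjusted p = 0.587) and -0.042 in replicates 4 and 5 alone (0.918). The call was also lost after quantile normalization (-0.98, adjusted p = 0.0603), with a robust fit (0.0551), and on leaving out any 1 of control replicates 1 to 3 or restricted replicates 1 to 3 (-1.04 to -0.83, adjusted p = 0.0544 to 0.103). The third Pck1 probe set, 1455209_at, had values of 8.601 to 9.401 in control and 7.93 to 8.999 in restricted kidney, a difference of -0.33 ± 0.20 (limma adjusted p = 0.309), -0.40 with the covariate and -0.27 in replicates 4 and 5 alone.

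On the same array, 1439617_s_at minus 1423439_at of Pck1 was -2.34, -1.85, -1.80, -3.06 and -2.69 in control kidneys and -3.87, -3.42, -3.75, -2.86 and -2.83 in restricted kidneys. Its order over the arrays broadly ran against that of the end ratio, with the 3 lowest differences on the 3 arrays of highest ratio and the 3 highest on the 3 arrays of lowest ratio, all of them controls. Between the diets it differed by -0.998 (exact permutation p = 0.0317, adjusted 0.111), and by 0.030 in replicates 4 and 5 alone. The third probe set minus the brightest differed by -0.32 (exact permutation p = 0.0635, adjusted 0.148).

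**Figure D3:**
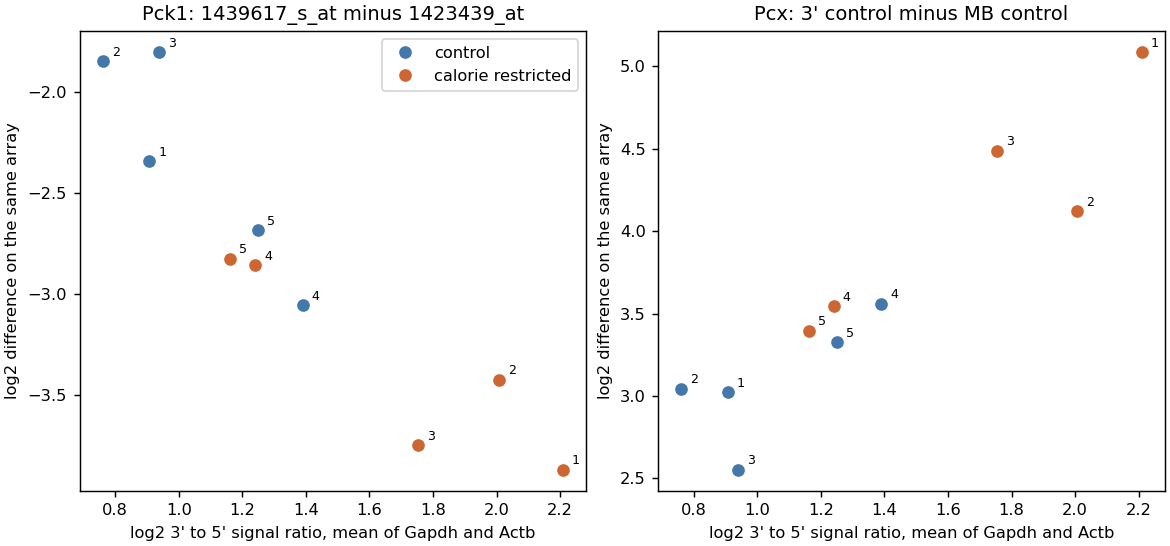
Log2 difference between 2 probe sets of the same gene on the same array (vertical) against the end ratio of that array, the log2 signal of Gapdh and Actb at the 3′ end over that at the 5′ end (horizontal), for Pck1 and for Pcx, control (blue) and calorie restricted (orange), points numbered by replicate. The arrays of both diets fall along 1 band in either panel, and replicates 4 and 5 of the diets lie beside each other.

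Pck2, the mitochondrial form of the same enzyme, lay lower in 3 of 5 restricted kidneys and did not pass the test. Its brightest probe set stood at 9.27, 9.06, 8.81, 8.93 and 8.90 in control kidneys and at 8.55, 8.52, 8.49, 8.85 and 9.05 in restricted kidneys. Restricted replicates 1 to 3 were below all controls, and replicates 4 and 5 within their range. The difference was -0.30 ± 0.14 (limma adjusted p = 0.195), with a 95% interval of -0.61 to 0.0031. It was -0.033 with the end ratio as covariate and 0.039 in replicates 4 and 5 alone. The dim Pck2 probe set below the filter, with mean signals of 79.5 ± 20.9 and 123.6 ± 46.0 (SD, n = 5), went the other way by 0.57 (exact permutation p = 0.167). Pck2 minus Pck1 on the same array differed by -0.30 between the diets (exact permutation p = 0.206).

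Fbp1 removes a phosphate from fructose 1,6-bisphosphate, and its probe set was among the brightest of the kidney. It stood at 14.66, 14.75, 14.79, 14.64 and 14.69 in control kidneys and at 15.11, 15.22, 15.02, 15.05 and 14.97 in restricted kidneys. All restricted kidneys were above all controls, replicates 4 and 5 included. Signal went from 26772 ± 1140 to 34591 ± 2380 (SD, n = 5), a difference of 0.37 ± 0.066 (limma adjusted p = 0.0167), and it was called whichever 1 of the 10 arrays was left out (0.33 to 0.39, adjusted p = 0.00844 to 0.0452). With the end ratio as covariate it was 0.32 (adjusted p = 0.152) and in replicates 4 and 5 alone 0.34 (0.154). After quantile normalization, which gives all arrays the same distribution, the difference was 0.013 (adjusted p = 0.894). The call was also lost with no filter on dim probe sets (adjusted p = 0.0623) or no intensity trend (0.0601). Among all 45101 probe sets Fbp1 ranked 13 to 34 from the top in control and 15 to 27 in restricted kidneys, so its place among the brightest probe sets overlapped between the diets while its signal did not.

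G6pc3, the widely expressed glucose 6-phosphatase, rose while the diets overlapped for G6pc, the form of liver and kidney, and for the carrier Slc37a4. G6pc3 stood at 9.97, 9.58, 9.64, 9.82 and 9.78 in control kidneys and at 10.35, 10.18, 10.14, 10.15 and 10.38 in restricted kidneys. All restricted kidneys were above all controls, with little spread among them. Signal went from 870.5 ± 94.9 to 1211 ± 99.4 (SD, n = 5), a difference of 0.48 ± 0.11 (limma adjusted p = 0.0267). It was 0.54 after quantile normalization (adjusted p = 0.0331), 0.45 with the end ratio as covariate (0.213) and 0.46 in replicates 4 and 5 alone (0.192). The rank rose as well, from 6744 to 8488 from the top in control to 5191 to 6072 in restricted kidneys, with no overlap. The call was lost with median centring (0.38, adjusted p = 0.0685) and without control replicate 2, 3 or 4 or restricted replicate 1, 2 or 3 (0.43 to 0.50, adjusted p = 0.0512 to 0.0692).

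G6pc stood at 13.45, 13.65, 13.74, 13.30 and 13.73 in control kidneys and at 13.78, 13.83, 13.65, 13.92 and 13.79 in restricted kidneys. Of the restricted kidneys 4 lay above all controls and replicate 3 lay among them. The difference was 0.22 ± 0.094 with a 95% interval of 0.017 to 0.42 (limma adjusted p = 0.159), 0.059 after quantile normalization, 0.30 with the end ratio as covariate and 0.34 in replicates 4 and 5 alone. G6pc3 minus G6pc on the same array differed by 0.26 between the diets (exact permutation p = 0.127), so the diet differences of the pair were not shown to be unequal. Slc37a4, without which the phosphatase meets no substrate, had values of 12.78 to 13.02 in control and 12.80 to 13.08 in restricted kidney, a difference of 0.10 ± 0.081 (limma adjusted p = 0.451), 0.018 after quantile normalization, 0.12 with the covariate and 0.17 in replicates 4 and 5 alone.

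**Figure D4:**
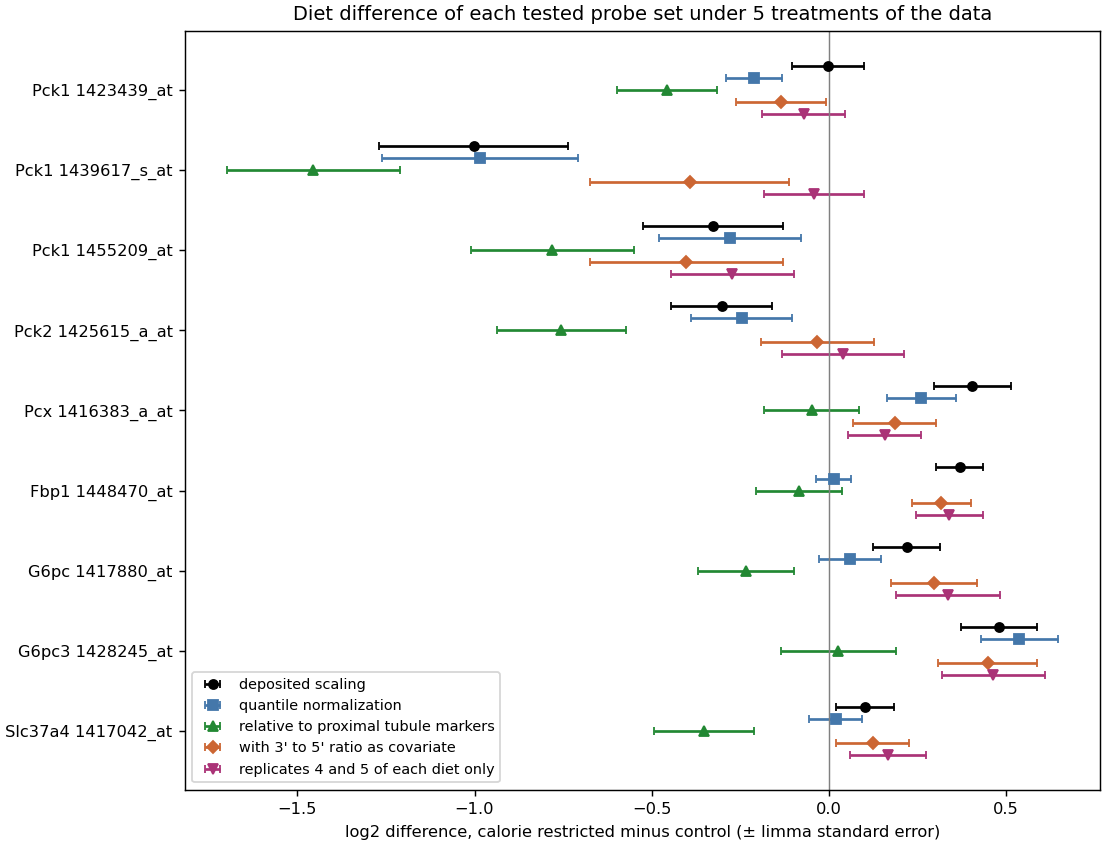
Log2 difference between the diets (calorie restricted minus control, ± limma standard error) for each of the 9 tested probe sets at the deposited scaling, after quantile normalization, relative to the proximal tubule markers, with the end ratio of Gapdh and Actb as covariate, and in replicates 4 and 5 of each diet only. G6pc3 stays between 0.45 and 0.54 in all but the scaling to proximal tubule markers (0.027), Fbp1 falls to 0.013 after quantile normalization, and Pck1 1439617_s_at moves from -1.002 to -0.042 in replicates 4 and 5.

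Markers of the proximal tubule, the cells that make glucose in the kidney, were higher under restriction by about as much as Fbp1, G6pc3 and Pcx. Of 24 tested markers that are no members of the pathway set 16 were called higher and 0 lower (19 and 0 at an unadjusted p below 0.05), with a median difference of 0.40. The 4 with the smallest p were Ttc36 (0.50 ± 0.066), Kap, an androgen-regulated protein (0.74 ± 0.11), Acsm2, a synthetase of medium-chain acyl-CoA (0.69 ± 0.11), and Slc27a2, which takes up fatty acids (0.40 ± 0.076). The mean level of all 24 ran from 12.85 to 13.46 on control arrays and from 13.50 to 13.70 on restricted arrays, with no overlap. The defining markers Slc34a1, Lrp2 and Cubn were well above the filter on all arrays, as the labelled tissue would have it. The count was 3 after quantile normalization, 0 with the end ratio as covariate and 3 in replicates 4 and 5 alone, where the medians were 0.20, 0.41 and 0.48 and 3.33%, 0.04% and 0.879% of all probe sets were called. After quantile normalization Ttc36 was at 0.25, Kap at 0.40, Acsm2 at 0.41 and Slc27a2 at 0.050. The marker count was 9 without control replicate 3 or 5, 3 without control replicate 2, 5 without control replicate 4, and 5, 4 and 5 without restricted replicate 1, 2 or 3. In those fits 0.555% to 3.45% of all probe sets were called, against 6.09% with all arrays.

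Set against the mean of these markers on each array, which lowers all tested probe sets by a median of 0.45, Fbp1 differed by -0.085, Pcx by -0.049 and G6pc3 by 0.027, with limma adjusted p of 0.559, 0.768 and 0.895. On that scale Pck1 (-0.46, adjusted p = 0.0150), Pck2 (-0.76, adjusted p = 0.00399) and Slc37a4 (-0.35, adjusted p = 0.0467) were called lower, and G6pc was at -0.23 (adjusted p = 0.151). This scaling called 46.4% of all probe sets, so a call on it is not particular to these genes. Relative to all probe sets, whose median it moved to -0.45, Pck1 was then near the middle, as at the deposited scaling.

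Markers of other cell types, some of which also use these enzymes, differed between the diets as well. Liver markers, since liver shares the whole pathway, had 1 of 7 tested members called higher, albumin (Alb, 1.53 ± 0.36, limma adjusted p = 0.0312). At an unadjusted limma p below 0.05, 4 of the 7 were higher and 0 lower. The list median was 0.64, with 6 above 0 and Fgb at -0.73. The mean level of the liver markers was 8.97 to 9.36 on control and 9.14 to 10.40 on restricted arrays. The liver genes Cyp7a1, Tat and Ahsg were below the filter on dim probe sets. Adipocyte markers had 2 of 7 tested members lower, Fabp4 (-0.77 ± 0.14) and Cidea (-1.10 ± 0.29), with mean levels of 9.58 to 10.51 and 8.85 to 9.52. Fat cells express Pck1 and Pcx, and Lep was below the filter. Of 8 macrophage markers 5 were lower, such as Mpeg1 (-1.02 ± 0.17), with mean levels of 10.46 to 11.15 and 9.85 to 10.53, and of 4 podocyte markers Wt1 was lower (-0.71 ± 0.18). Of 8 collecting duct markers Aqp6 (0.77 ± 0.14) and Slc4a1 (0.64 ± 0.17) were higher. At an unadjusted limma p below 0.05, 5 adipocyte, 6 macrophage and 1 of the podocyte markers were lower and 3 collecting duct markers higher, with 0 the other way. Over all genes tested 3.08% were called higher and 3.02% lower. In replicates 4 and 5 alone Aqp6 was at 0.34 (limma adjusted p = 0.227), Slc4a1 at 0.20 (0.550) and Fabp4 at -0.45 (0.111), and with the end ratio as covariate these were at 0.40, 0.22 and -0.43. Alb was at 2.43 in those replicates (adjusted p = 0.0251). None of 8 thick limb, 5 endothelial and 2 adrenal markers was called, where Umod differed by 0.29, Emcn by -0.65 and Star by 0.99, and 2, 2 and 1 of them passed an unadjusted p below 0.05. Emcn turned to 0.054 in replicates 4 and 5 alone and 0.026 with the covariate, and Umod to -0.066 after quantile normalization. Umod was at 0.13 in those replicates and 0.15 with the covariate. The part of these cells in the values of the gluconeogenesis genes was not tested.

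The rest of the pathway was followed with 8 lists of 97 genes, 79 of them tested. Of these 8 were higher and 2 lower, against 3.08% and 3.02% of all genes. At an unadjusted p below 0.05, 19 were higher and 8 lower, against 1542 and 1682 of all 12196 genes. With the end ratio as covariate, and in replicates 4 and 5 alone, 0 passed in limma (14 higher and 12 lower, and 21 higher and 12 lower, at an unadjusted p below 0.05), where 0.04% and 0.879% of all probe sets did. After quantile normalization 0 were higher and 1 was lower (15 and 9 at an unadjusted p below 0.05), where 3.33% of all probe sets passed. The matching numbers over all genes at that unadjusted p were not counted in these fits. The 8 became 1 without control replicate 2 or restricted replicate 1, 2 without restricted replicate 2, 3 without control replicate 4 or restricted replicate 3, and 4 without control replicate 3. In those fits 0.555% to 2.28% of all probe sets passed, against 6.09% with all arrays.

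Among the reversible steps that glycolysis and gluconeogenesis share, 2 of 6 tested genes rose, with a median of 0.24 over the list. Phosphoglycerate kinase Pgk1 went from a signal of 19187 ± 1701 to 27780 ± 2221 (SD, n = 5), a difference of 0.53 ± 0.081 (limma adjusted p = 0.0114). It was 0.25 after quantile normalization (adjusted p = 0.0506). The lactate dehydrogenase subunit Ldhb, which favours lactate use, rose by 0.27 ± 0.077 (adjusted p = 0.04995) and was at -0.023 after quantile normalization, 0.16 with the covariate and 0.18 in replicates 4 and 5 alone. The list of opposing steps of glycolysis also held Pdha1 and Pdhb of pyruvate dehydrogenase and Pdk4, the kinase that closes it and so spares pyruvate for Pcx. Of its genes 0 of 11 passed in limma. At an unadjusted p below 0.05, 2 were higher and 1 lower, the lower being Pdk4 and not an opposing step. Pdk4 was at -1.13 ± 0.32 (limma adjusted p = 0.0528) and hexokinase Hk1 at 0.55 ± 0.18 (0.0738). In replicates 4 and 5 alone Pdk4 was at -1.79 and Hk1 at -0.056, and with the covariate at -1.56 and 0.079. The enzymes of fructose 2,6-bisphosphate, the inhibitor of Fbp1, and the second fructose bisphosphatase gave 0 of 4 in limma (0 higher and 2 lower at an unadjusted p below 0.05). Fbp2 was at -0.51 ± 0.20 and Pfkfb3 at -0.46 ± 0.19, and all 4 were below 0. In replicates 4 and 5 alone these were at -0.22 and -0.74, and with the covariate at -0.30 and -0.65.

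Of the enzymes that supply carbon 2 of 12 rose, the mitochondrial aspartate aminotransferase Got2 (0.33 ± 0.068, limma adjusted p = 0.0212) and malate dehydrogenase Mdh2 (0.32 ± 0.083, adjusted p = 0.0385), which together move oxaloacetate carbon out of the mitochondrion. After quantile normalization these were 0.17 and 0.083, and Mdh2 was at 0.20 with the covariate. Among 13 substrate carriers the dicarboxylate carrier Slc13a3 rose (0.60 ± 0.12, adjusted p = 0.0202) and the lactate carrier Slc16a1 fell (-0.79 ± 0.20, adjusted p = 0.0350), at 0.27 (adjusted p = 0.258) and -0.70 (0.0965) in replicates 4 and 5 alone. With the covariate they were at 0.28 and -0.89, and Slc13a3 was at 0.37 after quantile normalization. Of 4 glucose carriers Slc5a2, which takes filtered glucose back up, rose (0.38 ± 0.075, adjusted p = 0.0198), and it was at 0.25 after quantile normalization. Slc2a2, the exit for glucose from the tubule cell, differed by 0.10 ± 0.094 (adjusted p = 0.532). Over all genes tested 3.08% were called higher and 3.02% lower, so 1 call each way among 13 substrate carriers is little beyond that share. The median of those 13 was 0.058.

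Of 19 regulators of the pathway's transcription the nuclear receptor Hnf4a rose (0.39 ± 0.10, limma adjusted p = 0.0388) and the deacetylase Sirt1 fell (-0.53 ± 0.12, adjusted p = 0.0278). In replicates 4 and 5 alone they were at 0.20 and -0.43, with the covariate at 0.23 and -0.45, and Hnf4a was at 0.26 after quantile normalization. The median of the 19 was 0.040, and at an unadjusted limma p below 0.05, 3 were higher and 2 lower. Over all genes tested 3.08% were called higher and 3.02% lower, so 1 call each way is little beyond that share. Of 10 hormone and acid-base inputs the parathyroid hormone receptor Pth1r rose (0.39 ± 0.099, adjusted p = 0.0379), and it was at 0.19 in replicates 4 and 5 alone and 0.23 with the covariate. The median of the 10 was 0.054, and at an unadjusted limma p below 0.05, 2 were higher and 1 lower. Here too 1 call is little beyond the share of all genes.

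**Figure D5:**
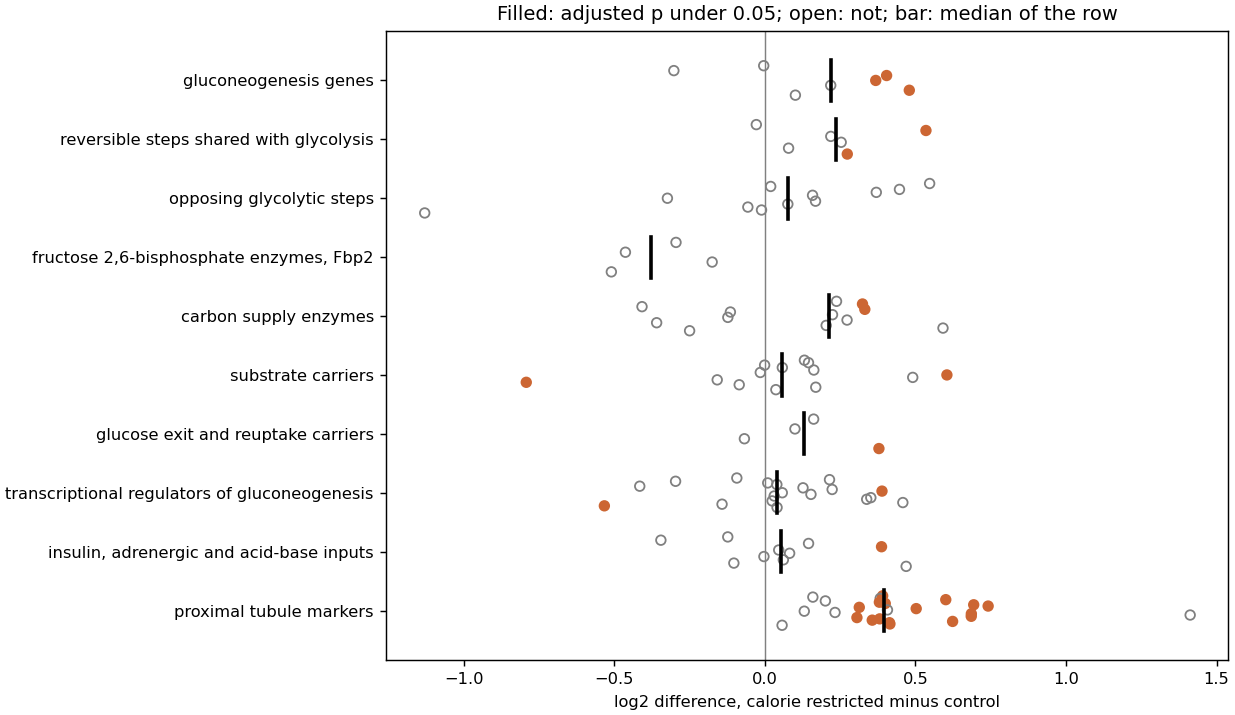
Log2 difference between the diets (calorie restricted minus control) of each tested gene, by its brightest probe set, for the gluconeogenesis genes, 8 lists of pathway genes and the proximal tubule markers, filled where the limma adjusted p was below 0.05, with the list median as a black bar. The medians of the gluconeogenesis genes and of the proximal tubule markers were 0.22 and 0.40. The 4 genes of the list of fructose 2,6-bisphosphate enzymes and Fbp2 were all below 0 without passing.

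The genes whose pattern over the arrays was most like that of a called member were sought among 12189 genes by Pearson's r of the deviations from the group means over 10 arrays, given as a description. For Fbp1 they were Gpr89 (0.96), the respiratory subunit Uqcrb (0.92) and 9430038I01Rik (0.92). For G6pc3 they were Ppme1 (0.94), Adgrl2 (0.94) and Fabp5 (0.89), and for Pcx Wfs1 (0.96), Krt5 (0.96) and Ppm1l (0.96). The arrays of a group differ in end ratio and scale, which all these genes share, and the values named are the highest of all genes compared.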

How the data were processed

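Expression was measured on 10 arrays, 5 per diet, from 5 ug of total RNA each per the labels' protocols. The deposited values are MAS5 intensity values on a linear scale, which the authors made with Affymetrix Expression Console, as the submitters' processing notes say, per the labels; the sources used here give no versions. The mean without the lowest and highest 2% of values was 500.0 on every array, and array medians were 114.7 to 136.2. The mean of all values was 755.3 to 767.9 on control arrays and 786.0 to 830.8 on restricted arrays, with no overlap. The platform annotation gave 34958 probe sets 1 symbol, 932 several and 9211 none, and 166 of 182 list genes were found.

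Signals below 1 were set to 1 before taking log2. The test used probe sets other than Affymetrix controls whose mean log2 reached the median, 6.81. The diets were compared with limma 3.58.1 in R 4.3.3 (lmFit, eBayes with trend, 2-sided). The fit was checked on simulated data with independent noise and larger changes than those of the called genes. That check does not cover changes of their size or differences shared by the probe sets of an array. A gene took the value of its brightest tested probe set. Single values outside the fit were tested with an exact permutation test, 2-sided. Named list genes were up to 4 called with the smallest p, or up to 2 where none was called; genes of like pattern were the 3 with the highest r. Slc34a1, Lrp2, Cubn, Slc2a2, Cyp7a1, Tat, Ahsg and Lep were named outside that rule. The members and lists were chosen with earlier results of these data known.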

Additional observations from a re-analysis of the deposited data

Results flagged for a closer look

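Of 32 groups of 5 arrays checked over the 14 probe sets and the RNA ratios, 1 held a value far from the others, where chance flags about 1 in 20 groups. The 3′ minus the 5′ Pcx control (log2) was 5.35 in calorie-restricted replicate 3, against 4.69 to 4.86 in the other restricted kidneys. The cause was not tested.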

How the results depend on the processing

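The number of genes of the set called higher was 3 at the deposited scaling (6.09% of all probe sets passing). It stayed 3 with the top 30% filter (11.5%), log2(signal + 50) (6.41%), a robust fit (6.07%) and array weights (10.2%). It also stayed 3 with probe sets averaged per gene (4.71% of genes). It was 1 with quantile normalization (G6pc3, 3.33% of all probe sets passing) and with median centring (Fbp1, 6.83%). It was 0 without a filter (where 0.637% of all probe sets passed), without the intensity trend (1.08%), relative to proximal tubule markers (46.4%, with 3 of the genes lower), with the end ratio as covariate (0.04%) and that with quantile normalization (0.0222%), in restricted replicates 4 and 5 against all controls (0.00444%), and in replicates 4 and 5 alone (0.879%). At an unadjusted p below 0.05, G6pc3 was higher in each of these other than relative to proximal tubule markers. Fbp1 was too, other than relative to those markers and with quantile normalization, with or without the covariate. With 1 array left out the number was 1 to 3. Fbp1 was called each time, and it alone without control replicate 2, 3 or 4 or restricted replicate 1, 2 or 3, where 0.555% to 2.28% passed. The numbers lower were 0 in these fits. With the replicate number as a block 0 genes of the set and 0.564% of all probe sets passed. The same-numbered arrays did not deviate together (r = -0.14 to -0.087), and none was most like its own number.

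The diet difference in the end ratio was 0.49 to 0.75 with 1 array left out (exact permutation p = 0.0397 to 0.0794).

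Relative to proximal tubule markers these turned sign: Pcx (-0.049, 3′ control -0.028, 5′ control -0.20), Fbp1 (-0.085), G6pc (-0.23) and Slc37a4 (-0.35). Pck2 turned to 0.039 in replicates 4 and 5 alone and 0.016 with the covariate and quantile normalization. With 1 array left out Pck1 1423439_at ran from -0.060 to 0.065, above 0 without control replicate 2 or 3 or restricted replicate 3, 4 or 5, and the Pcx MA control from -0.21 to 0.048, above 0 without restricted replicate 1 or 3. The cause was not tested.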
